A study of Mus musculus with 8 samples.

Results

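The effect of MRK-003, a small-molecule inhibitor of gamma-secretase, was measured in MC3T3-E1 cells co-cultured with vector control tumor cells, that is, with tumor cells that did not carry the Jagged1 construct. MC3T3-E1 is an osteoblast line established from the skull of a mouse. The comparison took the 4 of the 8 arrays whose labels name the vector co-cultures: 2 biological replicates treated with MRK-003 and 2 treated with its solvent, DMSO. All 4 groups of the study were co-cultures kept in the same alpha MEM medium with serum, and the other 4 arrays held co-cultures with Jagged1-overexpressing tumor cells, again with DMSO or MRK-003. On every array the co-culture's total RNA (175 ng) was labelled with Cy3 and Universal Mouse Reference RNA (Stratagene) with Cy5, with no dye swap. A level is therefore the log2 ratio of the co-culture to that reference, comparable between arrays for 1 gene but not between genes. Replicate 1 of every group was on 1 slide and replicate 2 on the other, so each replicate number gives 1 difference, MRK-003 minus DMSO, within a slide, and the mean of both is the value reported. The sources used here name neither the tumor line and its species, nor the dose and duration of MRK-003, nor any step that parted the cell types before lysis. In RNA from a mixed culture, fewer cells of a type and less RNA per cell cannot be told apart.

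Gamma-secretase is a membrane protease made of several subunits. It cuts Notch receptors after a ligand such as Jagged1 on a neighbouring cell has bound them, and the released intracellular domain joins the DNA-binding protein Rbpj and Mastermind coactivators to switch on targets, among them the Hes and Hey repressors. Osteoblast-lineage cells express Notch receptors and ligands themselves, and Notch activity is known to hold back their maturation. The comparison asks which transcripts depended on gamma-secretase when no Jagged1 had been overexpressed in the neighbouring cells.

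The arrays differed in brightness by slide: the median Cy3 signal of a probe was 182.8 and 203.6 for DMSO and MRK-003 on slide 1 but 76.5 and 99.3 on slide 2, and the share of probes well above background in Cy3 was 88.3% and 89.4% on slide 1 against 71.4% and 77.2% on slide 2. The spread of the difference over all genes was also narrower on slide 1 (SD 0.201 log2 units) than on slide 2 (SD 0.262). All 10 defining osteoblast markers (Runx2, Sp7, Alpl, Bglap, Ibsp, Spp1, Col1a1, Col1a2, Sparc and Cdh11) were well above background on all 4 vector arrays. So were 8 of 10 epithelial, 6 of 6 macrophage, 5 of 5 osteoclast, 4 of 5 adipocyte, 4 of 4 chondrocyte and 2 of 5 endothelial markers, while Esrp1 and Tie1 were well above background on none; being well above background on these arrays did not by itself separate cell types. On 3 of the 4 Jagged1 arrays, but on none of the vector arrays, there were spots whose local background reached 2414.5 to 32904 units in Cy3, against at most 349.5 on the vector arrays, and such spots narrowed those 3 arrays' log2 ratios in background correction (SD 0.730, 0.553 and 0.584, against 0.820, 0.775 and 0.802 when the local background of a spot was capped at 3 times the array's median). Those arrays enter the estimate of the spread but not the MRK-003 difference in vector co-cultures. The adjusted p-values below are therefore given from the fit as designed and from the same fit with the capped background, which was added after the data had been seen.

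Of 22639 genes measured, none passed an adjusted p of 0.05 for MRK-003 against DMSO in the vector co-cultures (0% called; limma on all 8 arrays with the slide as a block, Benjamini-Hochberg adjustment), whereas 1882 genes (8.31%) had an unadjusted p under 0.05, 1075 of them lower (4.75%) and 807 higher (3.56%) with the inhibitor. With the capped background 7 genes (0.0309%) passed: Hes1, Hey1, Dtx4, C1qtnf5, Aldh3a1 and Prag1 fell and Ifi27l2a rose. These calls did not hold in other fits with the cap: 0 genes passed on the 4 vector arrays only, with no slide block, or without vector DMSO replicate 2, either vector MRK-003 replicate or either Jagged1 MRK-003 replicate. Without either Jagged1 DMSO replicate only Dtx4 and Hes1 passed, and without vector DMSO replicate 1 there were 5 other genes and none of the 7. The median difference over all genes was 0.00496 log2 units, and 53.9% of genes had the same sign on both slides. A description that needs no test was the count of genes at least 1.5-fold apart in the same direction on both slides. By that rule 58 genes (0.256%) were lower and 27 (0.119%) higher with MRK-003, and Hes1, Hey1 and Dtx4 were among the 58.

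**Figure D1:**
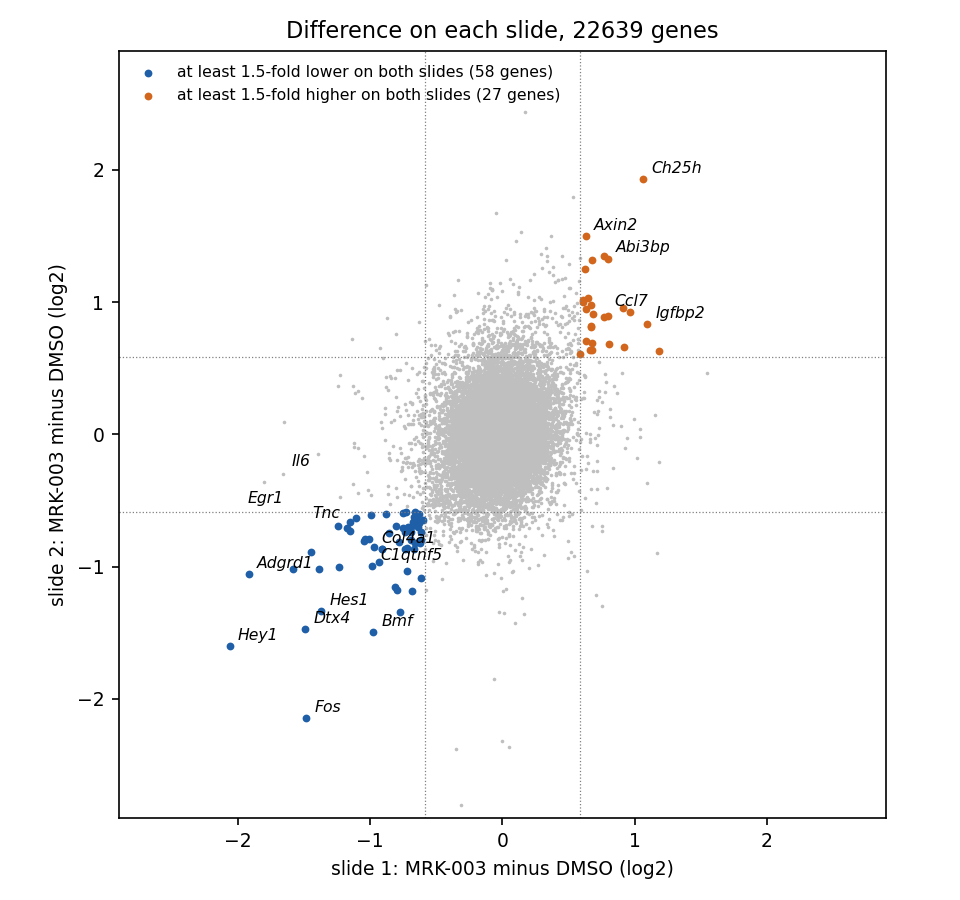
Difference between MRK-003 and DMSO in vector co-cultures, in log2 units, on slide 1 (x axis) and slide 2 (y axis) for all 22639 genes; dotted lines mark 1.5-fold, and the 58 genes past it downward and the 27 past it upward on both slides are coloured. Hey1, Hes1 and Dtx4 lie far out at the lower left, near equal values on both slides for Hes1 and Dtx4, whereas Egr1 and Il6 lie far from 0 on slide 1 only.

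The Notch effector genes with the clearest response were Hes1 and Hey1, both transcriptional repressors induced by the Notch intracellular domain. Hes1 (probe on mm7 chr16:29738743-29739038) stood at 1.34 and 1.79 in the DMSO replicates and at -0.03 and 0.45 in the MRK-003 replicates. The difference was -1.35 ± 0.19 (SE), a 2.56-fold lower level, and was nearly equal on the slides, at -1.37 and -1.34. The DMSO and MRK-003 arrays did not overlap, which held for 5825 of all 22639 genes (25.7%). The limma adjusted p was 0.353 as designed and 0.042 with the capped background. Hey1 (probe on mm7 chr3:8669867-8669926) was at -0.61 and -0.55 with DMSO and at -2.68 and -2.15 with MRK-003. Its difference of -1.83 ± 0.38 was the most negative of all members of the Notch lists, at 3.56-fold, with a limma adjusted p of 0.426 as designed and 0.042 with the capped background. Both MRK-003 arrays were again below both DMSO arrays for Hey1.

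Other effectors often used as readouts did not show this. Heyl, the third Hey-family repressor, was at 0.07 and 0.00 with DMSO and at 0.04 and -0.02 with MRK-003, a difference of -0.03 ± 0.08, and its second probe gave -0.28. Nrarp, which encodes a feedback inhibitor of the Notch transcription complex, was at -0.27 and -0.07 with DMSO and at -0.14 and -0.16 with MRK-003, a difference of 0.02 ± 0.13. Nrarp was well above background on only 1 of 2 arrays in each group, so a decrease from this level would have been hard to see. For both genes the DMSO and MRK-003 arrays overlapped.

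Of the 18 genes listed as Notch targets, 17 were measured and 10 had a negative difference, against 48.5% of all genes; the median was -0.02 log2 units, beside 0.00496 for all genes. None passed the adjusted threshold as designed and 2, Hes1 and Hey1, passed with the capped background. At an unadjusted p under 0.05, 4 were lower (Hes1, Hey1, Hes6 and Notch1) and 1 higher (Lfng), beside 4.75% and 3.56% of all genes. Hes6, a Hes-family member that opposes Hes1, was at 0.31 and 0.23 with DMSO and at -0.01 and -0.27 with MRK-003, a difference of -0.41 ± 0.11 with a limma adjusted p of 0.505, and its second probe gave -0.34. Hes5, Hes2, Hes3, Hes7, Dll4 and Nrip2 all lay between -0.15 and 0.10. Efnb2, an ephrin ligand, had a difference of 0.50 ± 0.30 made by 1 slide alone (-0.04 and 1.04). Dtx1 was well above background on neither DMSO array and on 1 MRK-003 array, and Hey2 was not measured. Here and below, a listed gene counts as measured only if a probe passed the filters on outlier spots and dimness. A gene not measured may thus still have a probe on the array.

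**Figure D2:**
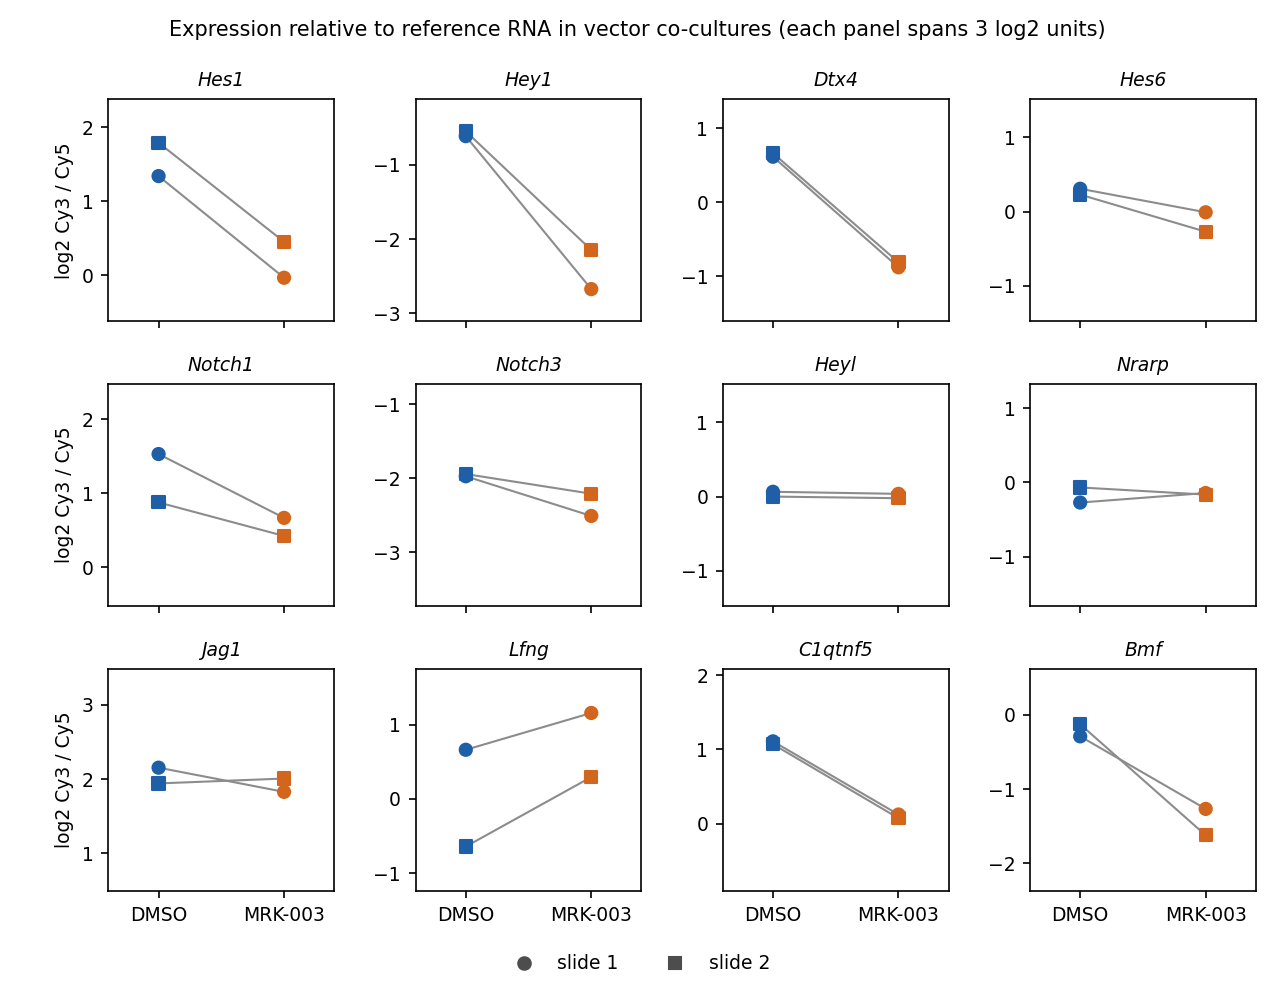
Log2 ratio of co-culture to reference RNA (y axis; every panel spans the same 3 log2 units) for 12 genes in the DMSO (blue) and MRK-003 (orange) vector co-cultures; each symbol is 1 array and each line joins the arrays of 1 slide. Hes1, Hey1, Dtx4, C1qtnf5 and Bmf are lower with MRK-003 on both slides without overlap (25.7% of all genes do not overlap). Notch1, Notch3 and Hes6 are lower by less. Heyl, Nrarp and Jag1 hardly differ, and Lfng is higher on both slides.

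Among receptors, Notch1 was at 1.53 and 0.88 with DMSO and at 0.67 and 0.42 with MRK-003, a difference of -0.66 ± 0.15 (limma adjusted p = 0.458, and 0.154 with the capped background); its second probe gave -0.60. Notch3 was at -1.97 and -1.94 with DMSO and at -2.51 and -2.21 with MRK-003, a difference of -0.40 ± 0.25. Notch2 was at 0.29 ± 0.21 and Notch4 at -0.12 ± 0.15, each within 2 SE of 0. For Notch1 and Notch3 the MRK-003 arrays were below the DMSO arrays on both slides without overlap (25.7% of all genes did not overlap). For Notch2 the arrays overlapped.

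The canonical ligands measured lay within 2 SE of 0. Jag1, the ligand whose overexpressed form is absent from these co-cultures, was at 2.15 and 1.94 with DMSO and at 1.83 and 2.01 with MRK-003, a difference of -0.13 ± 0.12. Dll1 was at -0.09 ± 0.08, Dll3 at 0.08 ± 0.10 and Dll4 at 0.08 ± 0.10, and Jag2 was not measured. The non-canonical ligands Dlk1 and Dlk2 were at 0.14 ± 0.20 and 0.16 ± 0.07.

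Dtx4, which encodes a Deltex ubiquitin ligase that acts on Notch receptors, had the smallest p-value of all genes. It was at 0.61 and 0.66 with DMSO and at -0.88 and -0.81 with MRK-003 (probe on mm7 chr19:12146568-12146627). The difference of -1.48 ± 0.10, or 2.79-fold, was -1.49 on slide 1 and -1.47 on slide 2, with a limma adjusted p of 0.192 as designed and 0.0303 with the capped background. Its 2 other probes gave -0.66 and -1.25, so the direction but not the size was shared. The other Deltex genes lay closer to 0, with Dtx3 at -0.27 ± 0.08 and Dtx2 at -0.17 ± 0.15.

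The subunits of gamma-secretase, the target of the drug, were measured for 6 of 7 genes. Psen2, a catalytic subunit, was at 0.01 ± 0.08, Ncstn (nicastrin) at 0.00 ± 0.19, Psenen (Pen2) at -0.11 ± 0.08 and Aph1b at -0.15 ± 0.10. Aph1a was the exception in size: it was at -1.25 and -1.59 with DMSO and at -0.41 and -1.22 with MRK-003, a difference of 0.61 ± 0.24 (limma adjusted p = 0.606), with 0.85 on slide 1 and 0.36 on slide 2. The second Aph1a probe gave 0.32.

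The remaining parts of the pathway were flat by comparison. Of 39 listed machinery genes 38 were measured, 25 with a negative difference, against 48.5% of all genes. Their median was -0.07 log2 units. At an unadjusted p under 0.05, 3 were lower (Dtx4, Notch1 and Dtx3) and 1 higher (Lfng), beside 4.75% and 3.56% of all genes. Dtx4 was the only one at least 1.5-fold lower on both slides (0.256% of all genes). Rbpj, the DNA-binding partner of the intracellular domain, was at 0.02 ± 0.09, and the Mastermind coactivators Maml1, Maml2 and Maml3 were at -0.19 ± 0.09, -0.11 ± 0.10 and -0.04 ± 0.08. The sheddases that cut Notch before gamma-secretase, Adam10 and Adam17, were at -0.25 ± 0.22 and -0.26 ± 0.19. Lfng, a glycosyltransferase that modifies Notch receptors, was higher with MRK-003 on both slides: it was at 0.66 and -0.64 with DMSO and at 1.16 and 0.30 with MRK-003. Its difference was 0.72 ± 0.21 (limma adjusted p = 0.517), but its 2 DMSO arrays lay further apart than that, so the groups overlapped.

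Other substrates of the protease, whose cleavage is not read out by their own mRNA, were measured for 19 of 20 genes with a median of 0.03 log2 units. App was at -0.24 ± 0.16, Cdh2 (N-cadherin) at -0.61 ± 0.22 with -1.04 on slide 1 and -0.17 on slide 2, and Erbb4 at 0.23 ± 0.09. The other Erbb4 probes, well above background on 2 of 4 arrays each, gave 0.0028 and 0.0157. None was 1.5-fold apart on both slides.

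The genes with the smallest p-values below 0, none of which passed as designed, were Dtx4, C1qtnf5, Eif2b2, Bmf and Asap3. C1qtnf5, a secreted protein with a C1q domain, was at 1.11 and 1.07 with DMSO and at 0.12 and 0.07 with MRK-003 (probe on mm7 chr9:44043473-44043529). Its difference was -0.99 ± 0.09 (limma adjusted p = 0.353, and 0.042 with the capped background), and its second probe gave -0.74. Eif2b2, a subunit of the translation factor eIF2B, was at 1.09 and 1.01 against 0.06 and 0.22, a difference of -0.91 ± 0.09 (limma adjusted p = 0.353, and 0.0731 with the capped background). For neither gene did the DMSO and MRK-003 arrays overlap, nor did they for 25.7% of all genes.

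Bmf, a pro-apoptotic BH3-only protein, was at -0.29 and -0.13 with DMSO and at -1.27 and -1.62 with MRK-003, a difference of -1.24 ± 0.13 (limma adjusted p = 0.353, and 0.153 with the capped background). A second Bmf probe that was well above background on all 4 arrays gave -0.02, so the lower level was seen by the brightest probe only. Asap3, a GTPase-activating protein for Arf proteins, was at 0.73 and 0.69 against 0.09 and 0.04, a difference of -0.65 ± 0.07 (limma adjusted p = 0.353).

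With the capped background Aldh3a1 and Prag1 fell as well. Aldh3a1, an aldehyde dehydrogenase, was at 2.01 and 1.43 with DMSO and at 0.62 and 0.41 with MRK-003, a difference of -1.20 ± 0.24 as designed. Prag1, a pseudokinase, was at 0.41 and 0.21 against -0.50 and -0.66, a difference of -0.89 ± 0.14, but its second probe gave -0.01. Neither gene's groups overlapped, nor did those of 25.7% of all genes.

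On the higher side the smallest p-values belonged to Ccl7, Bglap, Ccno, Slc16a1 and Tnnc2, all with a limma adjusted p of 0.353. Ccl7, a chemokine that attracts monocytes, was at -1.08 and -0.83 with DMSO and at -0.31 and 0.06 with MRK-003, a difference of 0.83 ± 0.09, and its second probe gave 0.75. Bglap, the bone matrix hormone osteocalcin, was at -0.38 and -0.19 against 0.28 and 0.45, a difference of 0.65 ± 0.08. Bglap has near-identical copies, and the listed copy Bglap2 was not measured apart from it, so the value may belong to either.

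Ccno (cyclin O) was at 0.75 ± 0.10, Tnnc2 (a troponin C) at 0.57 ± 0.08, and Slc16a1, which encodes the lactate and pyruvate transporter MCT1, at 0.58 ± 0.08 with other probes at 0.50 and 0.11. Ifi27l2a, an interferon-induced gene and the single rise with the capped background, was at -2.56 and -2.28 with DMSO and at -1.65 and -1.33 with MRK-003. Its difference was 0.93 ± 0.17 (limma adjusted p = 0.394 as designed and 0.042 with the capped background), and its second probe gave 0.82.

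Some further genes are named here only because they were 1.5-fold apart on both slides, and were thus chosen by their values. Lower with MRK-003 were Adgrd1 (-1.49 ± 0.27), an adhesion receptor whose 2 other probes gave 0.01 and 0.18, and Sema3g (-1.30 ± 0.30), a secreted semaphorin. Nrp1 (-0.73 ± 0.21), a semaphorin and VEGF receptor, was lower as well. Its other probes gave -0.52 and -0.44, but only -0.17 and -0.07 on slide 2. The stromal surface genes Fap (-0.91 ± 0.46), Pdgfra (-0.88 ± 0.10) and Cd248 (-0.75 ± 0.11) were lower too. However, the second Pdgfra probe gave only -0.12, and Fap was well above background on 1 of 2 MRK-003 arrays. Bmp1 (-0.93 ± 0.11), which trims procollagen, was also lower, and its second probe gave -0.41. Higher with MRK-003 were Ch25h (1.5 ± 0.39), which makes 25-hydroxycholesterol, the matrix genes Abi3bp (1.06 ± 0.34), Npnt (0.94 ± 0.36) and Aspn (0.81 ± 0.33), and the metal-binding Mt1 (1.00 ± 0.19). Second probes gave 0.31 for Abi3bp and 0.51 for Mt1. No gene of these passed an adjusted p of 0.05 in either fit.

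Promoter sequences are shown for 4 genes to set the Rbpj-type motif beside the measured differences: Bmf and Tnc as genes 1.5-fold lower on both slides, Ch25h as the gene with the largest difference upward among the 27, and Hes5 as a classical Notch target that hardly differed here. Each run is the 250 bases upstream of the annotated start, from RefSeq on GRCm38.p6, read 5′ to 3′ on the gene's strand. Capitals mark GTGGGAA or its reverse complement TTCCCAC, the core of the Rbpj binding site. Only genes that held this motif were shown, so its presence in all 4 says nothing about how common it was. Hes1, Hey1 and Dtx4 had no promoter entry.
Bmf, chr2:118544588-118544837, minus strand: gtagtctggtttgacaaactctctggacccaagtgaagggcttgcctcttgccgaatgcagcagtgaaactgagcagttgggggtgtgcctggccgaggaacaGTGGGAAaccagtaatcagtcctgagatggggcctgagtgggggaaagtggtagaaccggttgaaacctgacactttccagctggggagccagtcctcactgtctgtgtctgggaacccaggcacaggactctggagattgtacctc
Tnc, chr4:64046937-64047186, minus strand: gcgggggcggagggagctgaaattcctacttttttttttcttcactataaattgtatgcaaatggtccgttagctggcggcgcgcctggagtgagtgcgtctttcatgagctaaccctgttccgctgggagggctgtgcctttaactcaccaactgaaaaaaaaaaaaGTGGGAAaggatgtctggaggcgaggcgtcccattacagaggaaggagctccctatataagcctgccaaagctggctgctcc
Hes5, chr4:154960673-154960922, plus strand: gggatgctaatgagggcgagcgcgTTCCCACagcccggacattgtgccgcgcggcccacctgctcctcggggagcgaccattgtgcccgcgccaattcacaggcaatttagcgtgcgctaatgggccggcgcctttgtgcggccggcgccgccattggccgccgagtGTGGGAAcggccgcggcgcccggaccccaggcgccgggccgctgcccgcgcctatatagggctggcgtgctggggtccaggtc
Ch25h, chr19:34475149-34475398, minus strand: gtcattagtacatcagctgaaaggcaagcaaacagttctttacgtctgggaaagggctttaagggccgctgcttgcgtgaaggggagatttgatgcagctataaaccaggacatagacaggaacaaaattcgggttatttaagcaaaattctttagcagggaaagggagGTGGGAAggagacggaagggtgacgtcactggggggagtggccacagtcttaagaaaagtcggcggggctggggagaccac

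The motif begins 147 bases before the start in Bmf, 82 in Tnc, 81 in Ch25h, and 226 and 83 in Hes5. It was present in 1669 of 27025 genes with a promoter entry (6.18%). Among the genes 1.5-fold lower on both slides it was present in 3 of the 35 with an entry (8.57%), and among those higher in 2 of 18 (11.1%). Of the listed Notch targets, 4 of 12 held it (33.3%): Hes5, Hes7, Hey2 and Lfng. By their brightest probes, the genes that held it thus included lower (Bmf, Tnc), higher (Ch25h, Lfng) and flat ones (Hes5 at 0.10 ± 0.07, Hes7 at -0.15 ± 0.11). However, a second Bmf probe gave -0.02, and the Lfng groups overlapped. A match of letters in this window says nothing about whether Rbpj was bound.

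Of 32 collagens and other structural matrix genes measured, 23 had a negative difference, against 48.5% of all genes. The median was -0.20 log2 units, and at an unadjusted p under 0.05 9 were lower and 0 higher (4.75% and 3.56% of all genes); none passed the adjusted threshold in either fit. In all, 4 were 1.5-fold lower on both slides and 0 higher (0.256% and 0.119% of all genes). Col4a1 and Col4a2, the chains of basement membrane collagen IV, were at -0.90 ± 0.11 and -0.74 ± 0.15, and their second probes gave -0.88 and -0.77. Col4a1 was at 1.64 and 1.24 with DMSO and at 0.63 and 0.45 with MRK-003, without overlap (25.7% of all genes). Its limma adjusted p was 0.353 as designed and 0.0881 with the capped background.

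Tnc, the matrix glycoprotein tenascin C, was at 1.83 and 1.53 with DMSO and at 0.68 and 0.80 with MRK-003. Its difference was -0.94 ± 0.14. Its other probes gave -0.49 and -0.48, but only -0.07 and -0.27 on slide 2. Col5a3, a collagen V chain, was at 3.19 and 2.99 against 2.26 and 2.03, a difference of -0.95 ± 0.15, and its second probe gave -0.23. The main bone collagen chains Col1a1 and Col1a2 were at -0.29 ± 0.12 and -0.58 ± 0.31, and for both the DMSO replicates differed from each other by more than the treatments did.

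Immediate early genes, which respond within minutes to growth factor, serum and stress signals, had the lowest median of all the gene lists examined, at -0.39 log2 units over 18 genes. At an unadjusted p under 0.05 8 were lower and 1 higher (4.75% and 3.56% of all genes). In all, 6 (Fos, Fosb, Junb, Ier2, Dusp1 and Zfp36) were 1.5-fold lower on both slides (0.256% of all genes). None passed the adjusted threshold in either fit. Ier2, a nuclear response protein, was at -0.42 and -0.85 with DMSO and at -1.66 and -1.85 with MRK-003, a difference of -1.12 ± 0.17 (limma adjusted p = 0.353, and 0.129 with the capped background). Zfp36, which destabilizes cytokine mRNAs, was at -0.16 and -0.52 against -1.13 and -1.37, a difference of -0.91 ± 0.15.

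Junb was at -0.87 ± 0.14 and Dusp1, a phosphatase of MAP kinases, at -0.99 ± 0.20. Fos had the largest size of the list, with 0.91 and 0.65 under DMSO and -0.58 and -1.49 under MRK-003, but its error was also the largest (-1.81 ± 0.59). The list was uneven between slides, with a median of -0.74 on slide 1 and -0.09 on slide 2, and Egr1 was at -1.80 on slide 1 and -0.36 on slide 2.

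Of 21 genes of glycolysis and the hypoxia response measured, 16 had a positive difference, against 51.5% of all genes, their median was 0.32 log2 units, and at an unadjusted p under 0.05 9 were higher and 1 lower (3.56% and 4.75% of all genes); none was 1.5-fold higher on both slides or passed the adjusted threshold. Slc2a1, the glucose transporter GLUT1, was at -3.32 and -3.57 with DMSO and at -2.87 and -2.61 with MRK-003, a difference of 0.70 ± 0.13 (limma adjusted p = 0.394, and 0.158 with the capped background). Pgk1, a glycolytic enzyme, was at 0.53 ± 0.10 and Bnip3, a mitophagy receptor induced by hypoxia, at 0.51 ± 0.13. Of the 5 members with a negative difference, only Vegfa, the angiogenic growth factor, was lower at an unadjusted p under 0.05. Vegfa was at -0.40 and -0.71 with DMSO and at -1.02 and -1.16 with MRK-003. Its difference was -0.54 ± 0.11, and its 2 other probes gave -0.60 and -0.53.

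**Figure D3:**
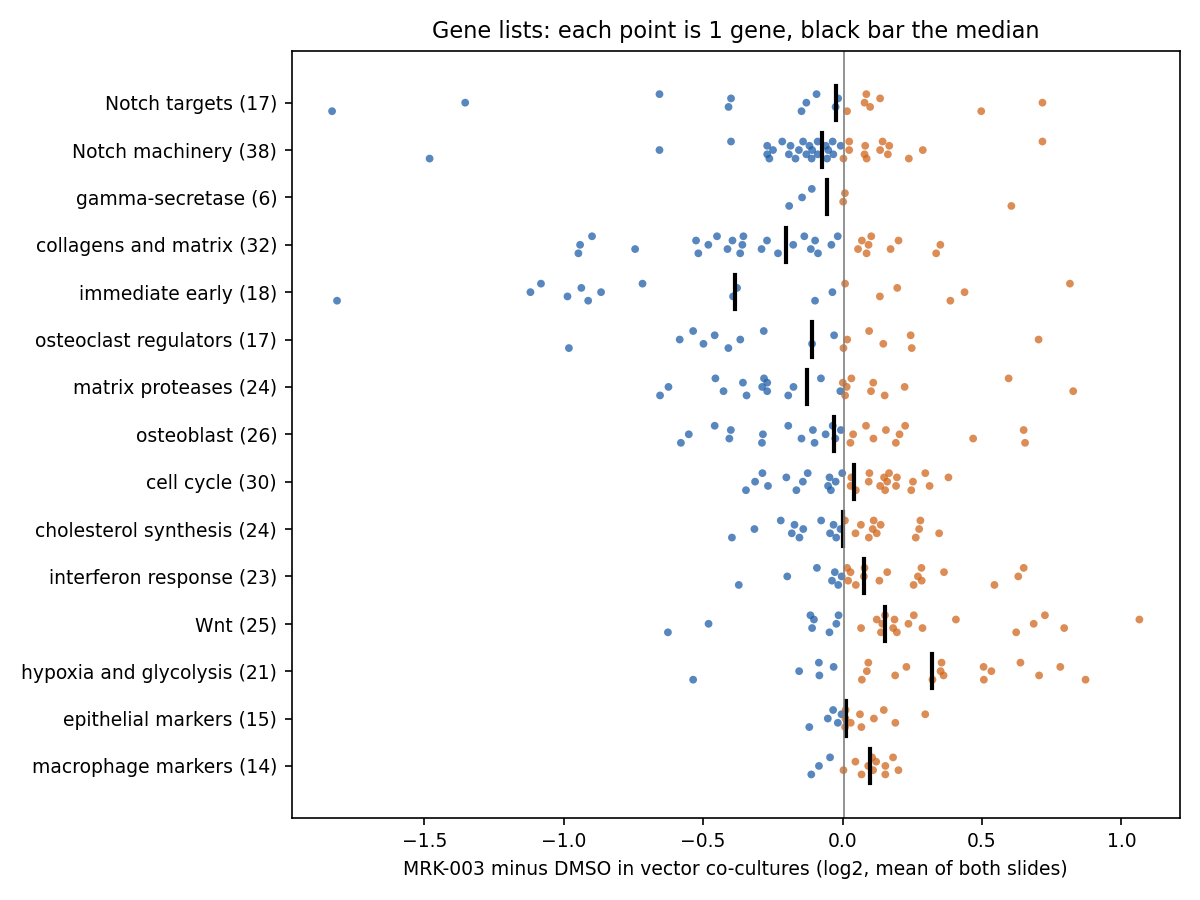
Difference between MRK-003 and DMSO in vector co-cultures (x axis, log2 units, mean of both slides) for the measured members of 15 gene lists, with the number measured in brackets; each point is 1 gene, blue below and orange above 0, the black bar is the list's median and the grey line the median of all genes. Matrix and immediate early genes have medians of -0.20 and -0.39, glycolysis and hypoxia genes one of 0.32, and most other lists lie near 0.

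Wnt pathway genes went both ways. Of 25 measured, 17 had a positive difference (51.5% of all genes did) with a median of 0.15 log2 units, and at an unadjusted p under 0.05 6 were higher and 1 lower (3.56% and 4.75% of all genes). Axin2, a feedback inhibitor and common readout of Wnt signalling, was at 0.59 and 0.08 with DMSO and at 1.22 and 1.58 with MRK-003. Its difference was 1.06 ± 0.35 (limma adjusted p = 0.536). It was well above background on 1 of 2 DMSO arrays and 2 of 2 MRK-003 arrays. Dkk2, a secreted modulator, was at 0.73 ± 0.15 and Tnfrsf19, a receptor induced by Wnt, at 0.79 ± 0.22. Lef1, a nuclear effector, was lower on both slides, at -0.91 and -1.16 with DMSO and at -1.77 and -1.55 with MRK-003, a difference of -0.63 ± 0.12.

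Interferon-stimulated genes gave 6 higher and 0 lower members of 23 at an unadjusted p under 0.05 (3.56% and 4.75% of all genes), with a median of 0.08 log2 units and none past the adjusted threshold. Isg15, a ubiquitin-like protein, was at -0.37 and -0.83 with DMSO and at 0.11 and -0.22 with MRK-003, a difference of 0.54 ± 0.08. Bst2 (tetherin), which holds back budding viruses, was at -3.34 and -3.40 against -2.77 and -2.68, a difference of 0.65 ± 0.12. Ifit3 was at 0.36 ± 0.11, with a second probe at -0.0039, and Psmb8, an immunoproteasome subunit, at 0.28 ± 0.08. For these 4 the MRK-003 arrays were above the DMSO arrays on both slides. The groups did not overlap for Bst2, Psmb8 and Isg15, nor for 25.7% of all genes.

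Osteoblast genes showed no common direction. Of 26 measured, 15 were negative, against 48.5% of all genes, and the median was -0.03 log2 units. At an unadjusted p under 0.05, 3 were higher (Bglap, Omd and Runx2) and 1 lower (Sparc), beside 3.56% and 4.75% of all genes. Runx2, the master regulator of the lineage, was at 0.47 and 0.35 with DMSO and at 0.62 and 1.13 with MRK-003, a difference of 0.47 ± 0.19 with 0.15 on slide 1 and 0.78 on slide 2, and its other probes gave 0.45, 0.10 and 0.08. Omd, the matrix proteoglycan osteomodulin, was at 0.65 ± 0.24 and Sparc (osteonectin) at -0.29 ± 0.11. The Sparc probe was saturated on 1 vector array, and the second Sparc probe gave 0.05, with opposite signs on the slides. Sp7 (-0.41 ± 0.41), Alpl (0.22 ± 0.20), Ibsp (-0.04 ± 0.28) and Spp1 (0.19 ± 0.18) lay within 2 SE of 0.

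Regulators of osteoclast formation and secreted signals were mixed. Of 17 osteoclast regulators measured, 5 were lower and 1 higher at an unadjusted p under 0.05 (4.75% and 3.56% of all genes), with a median of -0.11 log2 units; Tnfsf11, the osteoclast-inducing cytokine RANKL, was not measured, and its decoy receptor Tnfrsf11b was at 0.24 ± 0.33. Tgfb1 was at 0.21 and 0.20 with DMSO and at -0.35 and -0.41 with MRK-003, a difference of -0.58 ± 0.11 (limma adjusted p = 0.394, and 0.14 with the capped background), and Tgfb3 was at -0.50 ± 0.13. Il6, an inflammatory cytokine, was at 2.44 and 1.70 with DMSO and at 0.78 and 1.4 with MRK-003. Its difference of -0.98 ± 0.36 was mostly made by slide 1 (-1.66 and -0.30). Ccl2, a monocyte chemokine encoded beside Ccl7, was likewise higher on both slides, at 0.70 ± 0.12.

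Smaller lists held single genes of note. Among TGF-beta and BMP response genes (20 measured, median 0.03 log2 units), the helix-loop-helix inhibitors Id3 and Id1 were at -0.46 ± 0.09 and -0.46 ± 0.10 while Id4 was at 0.96 ± 0.30. In the Cy3 channel alone the Id1 difference had the opposite sign. Among IGF genes (11 measured, median 0.01), Igfbp2 was at -2.92 and -2.23 with DMSO and at -1.82 and -1.39 with MRK-003, a difference of 0.96 ± 0.24. Irs1, the adaptor of the IGF and insulin receptors, was at 0.78 ± 0.21 and Igfbp7 at -0.45 ± 0.09. Among 24 proteases and inhibitors of matrix turnover (5 lower, 3 higher at an unadjusted p under 0.05, beside 4.75% and 3.56% of all genes), Mmp11 was at -0.62 ± 0.13 and Timp3, a protease inhibitor, at 0.83 ± 0.19.

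Further lists had medians near 0. The 30 cell cycle genes had a median of 0.04 log2 units with 3 lower (Ttk, Cdc20 and Plk1, at -0.31 to -0.27) and 2 higher at an unadjusted p under 0.05, where 4.75% of all genes were lower and 3.56% higher. The 24 cholesterol synthesis genes had a median of 0.00 with 1 lower and 1 higher. The 16 contractile genes had a median of 0.03, although Tagln, an actin-binding protein of contractile cells, was at 0.63 ± 0.13. The 19 stress response genes had a median of -0.06, with the chaperone Hspa5 at -0.51 ± 0.12 and the transcription factor Ddit3 at 0.40 ± 0.09.

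Lists of markers of other cell types had medians near 0, with single members on either side. The median difference was 0.01 log2 units for 15 epithelial, 0.10 for 14 macrophage and 0.05 for 10 osteoclast markers. It was 0.01 for 10 adipocyte, 0.07 for 11 chondrocyte and -0.02 for 10 endothelial markers. At an unadjusted p under 0.05 there were, in the same order, 0, 1, 1, 1, 2 and 0 members, beside 8.31% of all genes. Among these, the cartilage collagen Col2a1 was at -0.52 ± 0.19, with -0.86 on slide 1 and -0.18 on slide 2. Its other probes gave -0.33, with opposite signs on the slides, and 0.05. Cebpa, a regulator of fat cell differentiation, was at -0.46 ± 0.15. However, the second Cebpa probe, also well above background on all 4 arrays, gave -0.0038. The mean level of the epithelial list was -1.93 and -1.82 with DMSO against -1.82 and -1.83 with MRK-003, and that of the macrophage list -2.10 and -2.08 against -1.99 and -2.05, so neither list shifted by more than 0.11 units on a slide. Itgb3, an integrin of osteoclasts that mesenchymal cells also carry, was the osteoclast marker with an unadjusted p under 0.05, at 1.02 and 0.77 with DMSO and 0.37 and 0.33 with MRK-003 (-0.54 ± 0.08, limma adjusted p = 0.353). Its second probe, also well above background on all 4 arrays, had the opposite sign (0.39), so the probes give no common direction for Itgb3.

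Whether the vector co-cultures responded differently from the Jagged1 co-cultures was tested as the difference of the 2 MRK-003 effects, which share no sample. As designed, 0 genes passed (0%; limma, adjusted p under 0.05), with 1474 (6.51%) at an unadjusted p under 0.05, and with the capped background 91 passed (0.402%). The effect within the Jagged1 co-cultures passed for 523 genes as designed (2.31%) and for 2221 with the capped background (9.81%). The following values are from the fit with the capped background, since 3 of the Jagged1 arrays carried the extreme spots.

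Hey1 was at -1.83 in vector and -5.27 in Jagged1 co-cultures, a gap of 3.44 ± 0.23 (limma adjusted p = 0.00898). With DMSO its levels were -0.61 and -0.56 in vector and 3.29 and 3.05 in Jagged1 co-cultures. With MRK-003 they were -2.68 and -2.15 against -2.11 and -2.09. For Hey1 the co-cultures thus lay further apart with DMSO than with MRK-003. A gap can reflect different DMSO levels as well as different MRK-003 levels. Dtx4 was at -1.48 and -3.13 (adjusted p of the difference 0.013) and Notch3 at -0.39 and -2.02 (0.0237). Jag1 was at -0.13 and -1.28 (0.0403), so it lay near 0 in vector co-cultures and the gap itself passed. Nrarp was at 0.02 and -0.87 (0.0484), but its probe met the brightness filter only through a Jagged1 group. In each vector group it was well above background on only 1 of 2 arrays, where a decrease would have been hard to see. No conclusion is therefore drawn from the Nrarp gap. C1qtnf5 was at -0.998 and -1.88 (0.0344), Prag1 at -0.89 and -2.30 (0.013), Eif2b2 at -0.91 and -2.01 (0.0342), Col4a1 at -0.90 and -2.001 (0.0403) and Tgfb1 at -0.58 and -1.67 (0.0335). In the other direction Slc16a1 was at 0.58 and 1.95 (0.013).

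Hes1 stood apart from Hey1 in this respect, at -1.36 ± 0.12 in vector and -1.80 ± 0.12 in Jagged1 co-cultures, a gap of 0.44 ± 0.17 that did not pass (limma adjusted p = 0.354). Notch1, at -0.66 and -1.42, did not pass either (adjusted p = 0.125). Among immediate early genes the gap was not called for those named here: Ier2 was at -1.12 and -1.24 (gap 0.12 ± 0.22, limma adjusted p = 0.877), Zfp36 at -0.91 and -0.95 (gap 0.04 ± 0.16, adjusted p = 0.957) and Dusp1 at -0.99 and -0.99 (gap 0.01 ± 0.24, adjusted p = 0.996). Fosb was at -0.94 in vector and -0.21 in Jagged1 co-cultures (adjusted p = 0.398), and the list medians were -0.39 and -0.27. A p that misses the threshold does not show that the effects were alike. The medians of the cell cycle and cholesterol lists were 0.04 and -0.0006 in vector and 0.53 and 0.39 in Jagged1 co-cultures, and the median of the matrix list was -0.20 and -0.54; the gaps between list medians were not tested.

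**Figure D4:**
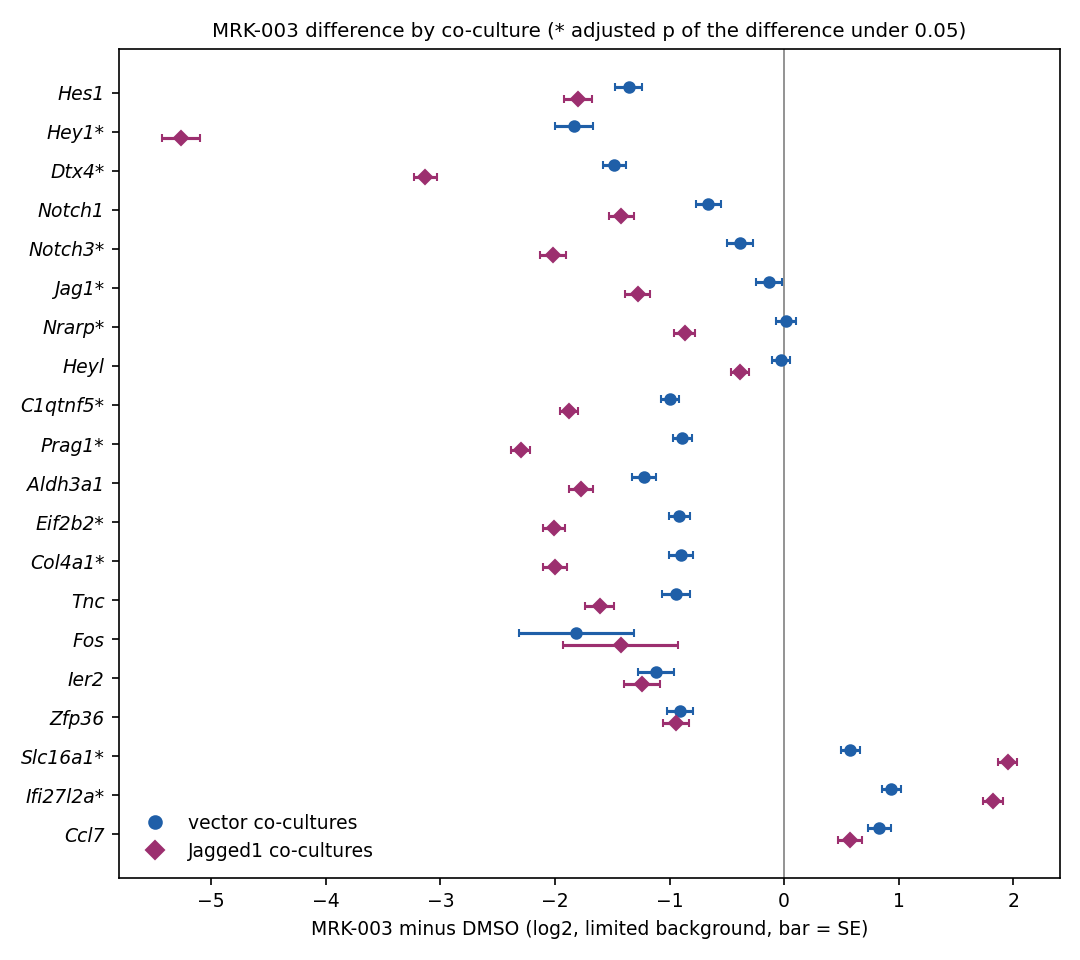
Difference between MRK-003 and DMSO (x axis, log2 units, capped background) for 20 genes in vector (circles) and Jagged1 (diamonds) co-cultures; bars are the SE of each difference and an asterisk marks an adjusted p under 0.05 for the gap between co-cultures. Hey1 has the widest gap, at -1.83 against -5.27, and the symbols of Ier2 and Zfp36 lie close together.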

How the data were processed

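Per the file headers, spots of these Agilent mouse arrays were read with Feature Extraction 9.5.3.1, with probe positions on mm7. The intensity columns the authors deposited and that enter here were mean signal and median local background in both channels, plus the software's processed signals. The deposited 0 or 1 spot marks (outlier, saturated, well above background) served as filters. The authors' deposited log2 value table equalled the log2 of processed Cy3 over Cy5 plus a constant on each array (100% of probes within 0.02; column medians 0.114 to 0.207) and was otherwise not used.

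In R 4.3.3 with limma 3.58.1, background was corrected by normexp (offset 50), ratios by loess within arrays. Outlier spots removed 303 probes and dimness 7811; a probe stayed in where the software marked Cy3 as well above background on each array of 1 or more groups. The 33060 kept gave 22639 genes, each by its brightest probe (7362 had several), and only these are called measured. RefSeq tables named 22951 probes by accession, 6659 by symbol and 3109 by synonym; 8455 kept the file's name. The model had 4 group means and the slide as a block; its effects come from within slides. Replicate number equalled slide and scan in the headers, and the deviations of DMSO and MRK-003 vector arrays from their group means correlated at 0.614 across genes (0.389 to 0.744 over all pairs of groups). The fit was tested on simulated data. Having 2 arrays a group limits the precision, and p-values measure only the spread between these samples.

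Members and gene lists were chosen with earlier results of these data known. Genes are named as follows: the 12 largest rises and falls past the threshold, or, with fewer than 5, the 5 smallest p-values in that direction; all measured Notch target, machinery and gamma-secretase genes; and, from each other list, the 4 members whose p was smallest. Some genes under this rule are not reported here. Other genes named were chosen after their values were seen.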

Additional observations from a re-analysis of the deposited data

Results flagged for a closer look

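The genes here were marked because the MRK-003 effect differed between vector and Jagged1 co-cultures by a test of that difference, in the fit with the capped background only; without the cap the limma adjusted p-values of the same gaps ran from 0.13 to 0.905. Gaps are vector minus Jagged1 in log2 units, so a positive gap means a less negative effect in vector co-cultures. Hey1 had a gap of 3.44, Dtx4 of 1.65, Notch3 of 1.63, Jag1 of 1.14 and Nrarp of 0.89. The Nrarp probe met the brightness filter only through a Jagged1 group, so no conclusion is drawn from its gap. Prag1 had a gap of 1.41, C1qtnf5 of 0.88, Eif2b2 of 1.09, Col4a1 of 1.10, Tgfb1 of 1.08 and the integrin Itgb3 of 1.17, though a second Itgb3 probe had the opposite sign in vector co-cultures (0.39). Genes with a larger rise in Jagged1 co-cultures were Tnfrsf19 (-2.66), Slc16a1 (-1.37), Ebp (-1.18), an enzyme of cholesterol synthesis, and Ifi27l2a (-0.88).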

How the results depend on the processing

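The number of genes changed by MRK-003 in vector co-cultures was 0 as designed, with no replicate block, with the 4 vector arrays only (with or without the block), with the scanner software's processed signals, median centring, other filters on dim probes, the mean of a gene's probes or Cy3 alone, and without any 1 array. It was 6 (5 of the 7 genes named for the cap, and Fap) with no local background subtraction, 2 with each array's median background and 7 with the capped background. With the cap it was 0 with no replicate block and with the 4 vector arrays only, and 0 to 5 when 1 array was left out: 5 without vector DMSO replicate 1, none of them among the 7, 2 (Dtx4 and Hes1) without either Jagged1 DMSO replicate, and 0 without any other. The difference of the MRK-003 effect between vector and Jagged1 co-cultures passed for 0 genes as designed, 93 with no local background subtraction, 89 with median background, 2 with processed signals, 39 with Cy3 alone, 91 with the cap and 4 with the cap and no replicate block. Leaving out 1 array gave 0 to 1 as designed and 0 to 61 with the cap (61 and 51 without Jagged1 DMSO replicate 2 and 1, 10 and 5 without vector DMSO replicate 1 and 2, 0 or 1 otherwise). A sample left alone in its group is assumed to vary like the other groups. The cause of these differences was not tested. Of 148 named genes, 6 changed sign under another setting: Esrp2 (0.0036 without local background, 0.0074 with processed signals), Numb (-0.024) and Srebf2 (0.0682) with the mean of probes, and Acan (-0.0465), Cxcl12 (0.0608) and Id1 (0.238) with Cy3 alone. Leaving out 1 array turned the sign in 14 more cases. As designed, the values then ran from -0.0117 to 0.2524 for C1qa, -0.5051 to 0.0652 for Flt1, -0.3219 to 0.0619 for Jag1, -0.0522 to 1.0468 for Efnb2, -0.045 to 0.6203 for Notch2, -0.5538 to 0.0549 for Adam10 and -0.0066 to 0.2116 for Ocstamp. With the cap, the turned values were -0.001 for C1qa, 0.0319 and 0.0301 for Flt1, 0.0112 for Jag1, -0.0554 for Notch2 and 0.002 for Ep300. Hes1, Hey1 and Dtx4 stayed negative throughout. The dimmer slide 2 limits what can be seen of weakly expressed genes such as Nrarp and Dtx1.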
